A study of Mus musculus with 6 samples.

Results

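The nuclear genes for subunits of the mitochondrial respiratory chain were examined in the distal midgut of E13.5 mouse embryos, a stage counted in days of embryonic development. A probe was taken when its only gene symbol in the platform annotation starts with Nduf (without the Ndufaf factors), Uqcr, Cox4, Cox5, Cox6, Cox7, Cox8 or Atp5, or is *Sdha* to *Sdhd*, *Cyc1* or *Cycs*. This gave 65 probes for 63 genes out of the 33012 probes on the array, 14411 of which carry a single symbol, for 13840 genes in all. Complex I is covered by 27 genes, complex II by 4, complex III by 7 including *Cyc1*, cytochrome c by *Cycs*, complex IV by 12 and complex V, the ATP synthase, by 12.

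RNA came from 3 *Id2*-/- samples, lacking the inhibitor of DNA binding 2, and from 3 *Id2*+/+ samples of littermate embryos, each hybridized to 1 single-color array. The mutant line is kept on an inbred or a mixed genetic background, the deletion is not confined to a cell type, and no source says whether 1 embryo or several went into a sample, so that a p-value here reflects how far these 6 samples scatter. The targeted gene was not analysed here, and the genotypes rest on the labels. Values are log2 of the signal after the authors divided each array by the median signal of its unflagged spots, and differences are *Id2*-/- minus *Id2*+/+. A probe was called above background at a signal-to-noise value of at least 3, and it entered the test if no array flagged it and if it reached that value on the 3 arrays of either genotype. Of the 12741 probes that passed, 62 are probes of the respiratory chain, for 60 genes. A gene with several probes is given by its brightest tested probe. Since each probe has its own binding strength, levels are compared between arrays for 1 probe and never between probes.

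The 2 arrays numbered 1, of either genotype, were more like each other (r = 0.984 over the tested probes) than like the remaining 4 (r = 0.909 to 0.931). Between 13890 and 16539 probes per *Id2*-/- array and between 14497 and 15830 per *Id2*+/+ array were above background. Of the 13 epithelial markers 12 were tested, and the log2 of their summed signal lay between 9.67 and 9.86 on the *Id2*-/- arrays and between 9.18 and 10.6 on the *Id2*+/+ arrays. For 6 of 8 smooth muscle markers the sums lay between 10.6 and 10.9, against 9.89 and 11.4. These sums, and the respiratory chain values that follow, come from whole tissue, in which fewer cells of a type and less RNA per cell cannot be told apart.

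The respiratory chain moves electrons from NADH and succinate to oxygen and uses the energy to pump protons across the inner mitochondrial membrane. Complex I takes electrons from NADH and complex II from succinate, both pass them to ubiquinone, complex III hands them on to cytochrome c, and complex IV reduces oxygen to water. The ATP synthase lets the protons flow back and makes ATP. Most subunits are encoded in the nucleus and imported, while the core of the proton pumps is partly encoded by mitochondrial DNA, which the genes described here do not include. Several subunits of complex IV exist as isoforms, some present in nearly every cell and some restricted to muscle, lung or testis.

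Nuclear respiratory chain genes are known for promoters with sites of the nuclear respiratory factor NRF1, of the ETS family, to which GABPA (nuclear respiratory factor 2) belongs, and of YY1. RefSeq promoters of the assembly GRCm38.p6, 250 bases before to 50 after a start of transcription, were at hand for 52 of the 63 genes. They were searched on both strands for GCGCATGC (NRF1), CCGGAAG (ETS) and AAGATGGC (YY1), and the NRF1 letters can overlap their own reverse complement. The NRF1 letters were found for 7 of the 52 genes (13.46%), against 6.25% of 5923 other genes with a tested probe and 3.05% of all 27025 genes of the table. The YY1 letters were found for 8 (15.38%), against 5.49% and 3.19%, and the ETS letters for 11 (21.15%), against 20.6% and 9.93%. A match is a description of the sequence, and no binding was measured.

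The YY1 letters lay at a like place in 6 complex I genes. In *Ndufa3*, *Ndufa9*, *Ndufb8*, *Ndufs4*, *Ndufs6* and *Ndufs7* they began 23, 30, 39, 36, 34 and 25 bases into the transcript, on the strand of the gene. A match between 15 and 43 bases into the transcript was found for 6 of the 52 genes of the chain (11.5%), against 1.84% of the other tested genes. Both this range and the view by complex were chosen after the matches were seen, so that the contrast is a description of them. The letters include ATG, the triplet that starts translation, and where translation of these genes begins was not looked up. The 30 bases around each match are shown 5′ to 3′ to make the shared place visible, with the matched letters in capitals, from chr7:3617384-3617413, plus strand for *Ndufa3*, chr6:126849097-126849126, minus strand for *Ndufa9*, chr19:44555393-44555422, minus strand for *Ndufb8*, chr13:114388045-114388074, minus strand for *Ndufs4*, chr13:73328433-73328462, minus strand for *Ndufs6* and chr10:80249462-80249491, plus strand for *Ndufs7*.
Ndufa3: ccgccaagaacAAGATGGCcgggagtaagt
Ndufa9: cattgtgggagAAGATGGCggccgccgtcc
Ndufb8: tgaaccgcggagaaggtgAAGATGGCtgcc
Ndufs4: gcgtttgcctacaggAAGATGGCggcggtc
Ndufs6: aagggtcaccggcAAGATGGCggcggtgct
Ndufs7: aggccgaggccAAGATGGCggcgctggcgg

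Longer stretches are shown for *Cycs*, *Sdhb*, *Uqcr11* and *Atp5j*, 4 genes whose promoters hold the NRF1 or ETS letters and whose values are described further on. *Sdhb* and the brighter probe of *Cycs* were dim on the arrays numbered 1, and *Uqcr11* was bright on them. *Cycs* and *Atp5j* have 2 probes each. Each stretch runs from position -150 to 30 relative to the start of transcription, with the matched letters in capitals. *Cycs* (chr6:50566540-50566719, minus strand) holds the NRF1 letters at -60, on the other strand. *Sdhb* (chr4:140961121-140961300, plus strand) holds them at -54 and the ETS letters at 7. *Uqcr11* (chr10:80406792-80406971, minus strand) holds the ETS letters at -66 and the NRF1 letters at -4. *Atp5j* (chr16:84834947-84835126, minus strand) holds the YY1 letters at -88 and the ETS letters at -61, and its second listed start holds none. In *Uqcrc1* (chr9:108936667-108936696, plus strand) the NRF1 letters and their reverse complement overlap, beginning at 31 and 33, and 30 bases are shown.
Cycs: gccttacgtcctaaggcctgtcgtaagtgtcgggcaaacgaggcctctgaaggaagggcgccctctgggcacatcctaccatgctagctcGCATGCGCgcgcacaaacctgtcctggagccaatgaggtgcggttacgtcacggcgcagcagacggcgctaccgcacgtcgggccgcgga
Sdhb: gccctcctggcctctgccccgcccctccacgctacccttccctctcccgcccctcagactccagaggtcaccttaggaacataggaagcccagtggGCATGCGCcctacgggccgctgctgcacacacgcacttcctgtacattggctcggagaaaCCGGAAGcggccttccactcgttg
Uqcr11: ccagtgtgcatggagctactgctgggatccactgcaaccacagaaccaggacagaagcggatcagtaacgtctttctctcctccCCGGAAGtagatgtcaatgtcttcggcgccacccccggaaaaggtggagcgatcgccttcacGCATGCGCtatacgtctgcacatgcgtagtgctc
Atp5j: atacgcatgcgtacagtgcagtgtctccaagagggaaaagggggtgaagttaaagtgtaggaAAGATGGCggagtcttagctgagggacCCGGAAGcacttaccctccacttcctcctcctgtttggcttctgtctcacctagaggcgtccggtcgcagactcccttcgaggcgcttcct
Uqcrc1: gactccgctctGCGCATGCGCagcgcggct

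The first question was whether the loss of *Id2* changed the RNA of the chain. Of the 60 genes, 32 were higher and 28 lower in *Id2*-/- midgut on the mean of the arrays, and the differences were small. The median difference was 0.00 on the log2 scale (0.004, middle 50% from -0.06 to 0.05), beside 0.04 (-0.07 to 0.16) for all 12741 tested probes. Single arrays set its sign. It was -0.17 without the *Id2*-/- array numbered 1, 0.11 without the *Id2*-/- array numbered 3, -0.06 without the *Id2*+/+ array numbered 2 and -0.02 without the *Id2*+/+ array numbered 1, beside -0.01, 0.10, 0.07 and -0.04 for all tested probes. Without both arrays numbered 1 it was -0.15, beside -0.11, and 4 of the 60 genes (6.67%) stayed higher in *Id2*-/- midgut, beside 30.8% of all tested probes. All genes but *Cox4i2* differed by less than 0.2 in either direction, 59 of 60 (98.3%), against 68.6% of all tested probes and 92.6% of the 1537 tested probes at least as bright as the lower quartile of the respiratory chain genes. For 55 of the 60 genes the difference was smaller than the SD over the 3 arrays of either genotype. The 5 others were *Ndufa6*, *Ndufa8*, *Ndufv1*, *Uqcr10* and *Atp5j*, where it exceeded the SD of 1 genotype.

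None of the 62 probes passed an adjusted p of 0.05 in limma, in either direction, and neither did any of the 12741 tested probes (percent called 0 in both directions), of which 234 had an unadjusted p under 0.05, none of them a probe of the chain. With the array number as a replicate block, 135 probes were called higher (1.06%) and 143 lower (1.12%) in *Id2*-/- midgut, again none of them of the chain. Of the 1537 bright probes named above it called 1 higher and 1 lower. Only *Cox4i2* of the chain had an unadjusted p under 0.05 in that limma fit (0.033), beside 879 of all tested probes and 8 of the bright ones. That fit pooled the variance over all probes, so that each had the same SE of 0.27. A call in it thus depended on the size of the difference alone, and it cannot decide for genes this near 0. The count fell to 0 of 12741 when the block was combined with quantile normalization or with centring on the tested probes, the latter a fit that was not planned. The 3 *Id2*-/- arrays overlapped the 3 *Id2*+/+ arrays for every gene of the chain. Of all tested probes 2.73% lay higher on all *Id2*-/- arrays and 1.29% lower. Of the 1537 bright probes named above only 10 lay higher and 9 lower, so that overlap was common at this brightness. The 95% interval of the difference lay within 1 on the log2 scale in both directions for 43 of the 60 genes and within 2 for 58. At the median it reached 0.69 to either side of the difference. With the block and centring together, in that unplanned fit, the interval lay within 1 for all 60, and at the median it reached 0.30 to either side.

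**Figure D1:**
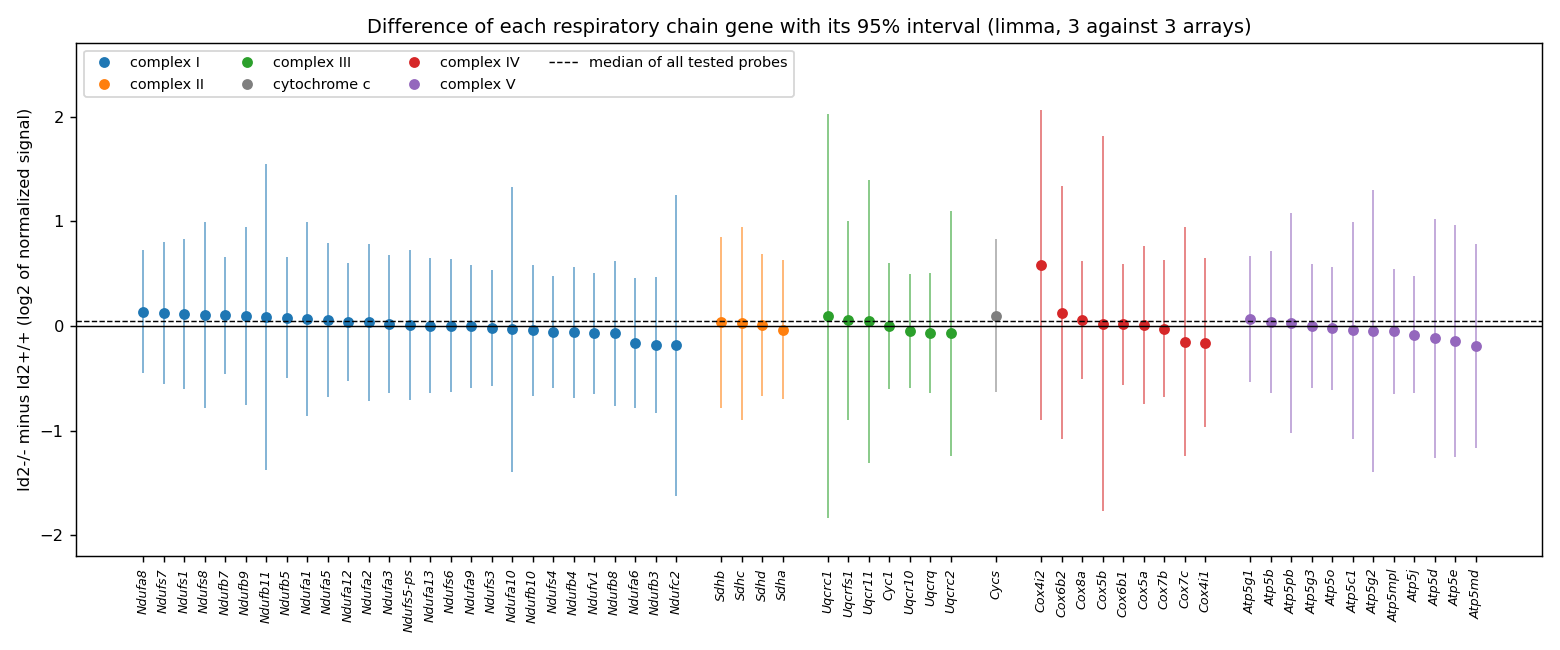
Difference *Id2*-/- minus *Id2*+/+ in log2 normalized signal (vertical axis) for the 60 respiratory chain genes (horizontal axis, grouped by complex, points) with the 95% interval from limma (lines, 3 against 3 arrays). The dashed line is the median of all tested probes, 0.04, and every interval includes 0.

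Within pairs of same-numbered arrays the genes differed by more than their means did. The pairs numbered 2 and 3 rest on the labels, since their arrays correlated about as much across these numbers. Within the same-numbered pairs the median difference of the 60 genes was 0.30 for number 1, 0.00 for number 2 and -0.27 for number 3, and 57, 32 and 2 of the genes were higher in the *Id2*-/- array. All tested probes had medians of 0.35, -0.04 and -0.19, and 85.6%, 44.0% and 25.6% of them were higher in the *Id2*-/- array. The 1537 bright probes named above had medians of 0.34, -0.06 and -0.23, and 1413, 528 and 112 of them were higher. After each array was centred on the tested probes, the pair medians of the chain were -0.04, 0.05 and -0.11. Only *Cox4i2* and *Cox6b2* were higher in all 3 pairs, where 11.8% of all tested probes were, and only *Atp5e*, the epsilon subunit of the ATP synthase, was lower in all 3, where 5.64% were. Of the 1537 bright probes 59 were higher in all 3 pairs and 71 lower, so that a small share is not particular to the chain. The epithelial markers had pair medians of 0.47, -0.48 and -0.82, and their part in these values was not tested. In the pair numbered 1 the genes not higher in the *Id2*-/- array were *Atp5md*, *Atp5e* and *Ndufb4*, with differences of -0.43, -0.05 and -0.04.

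**Figure D2:**
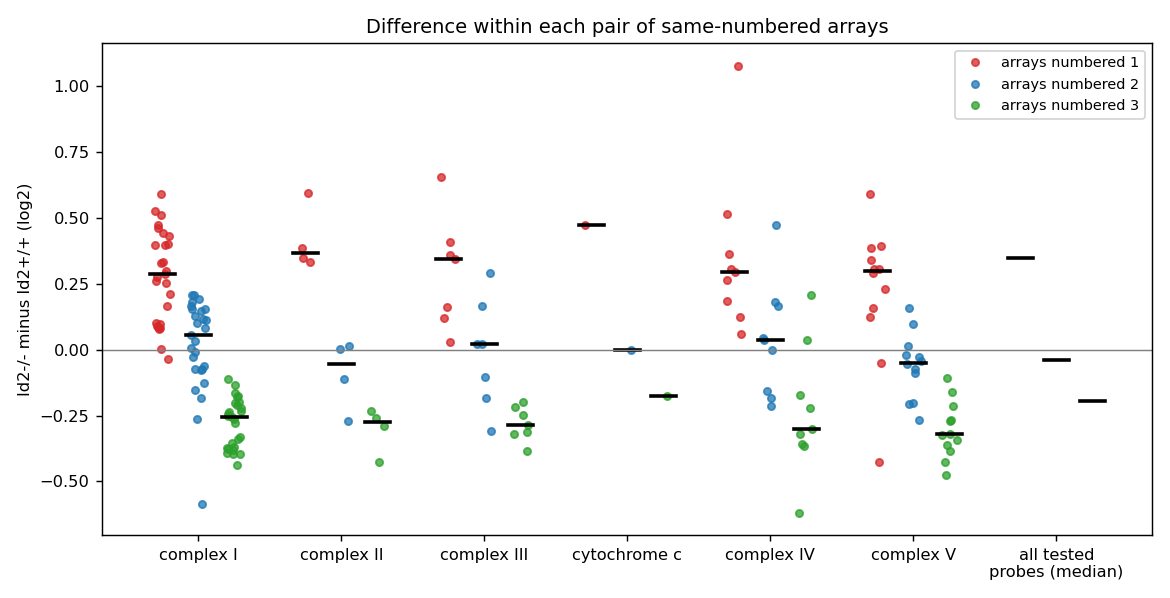
Difference *Id2*-/- minus *Id2*+/+ in log2 normalized signal (vertical axis) within each pair of same-numbered arrays, by complex (horizontal axis). Points are genes, bars are medians, and for all tested probes the median alone is drawn. The medians of the 60 genes were 0.30, 0.00 and -0.27 in the pairs numbered 1, 2 and 3.

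Complex I, the entry point for NADH, was represented by 27 genes, all above background on all 6 arrays. Their levels lay between 3.61 and 8.86, their median difference was 0.01 and their differences ran from -0.18 to 0.13. Of 5 core subunits, which carry the flavin and iron-sulfur clusters or hold them in place, *Ndufs1*, *Ndufs7* and *Ndufs8* lay at 0.12, 0.13 and 0.10, while *Ndufs3* and *Ndufv1*, the flavoprotein that oxidizes NADH, lay at -0.02 and -0.07. The 22 other subunits had 13 genes above 0 and 9 below. *Ndufs5-ps*, at 0.01, is a transcribed pseudogene in RefSeq, and whether its probe reads the RNA of *Ndufs5* was not tested.

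*Ndufa8*, an accessory subunit, had the largest positive difference of complex I. It measured 7.83, 7.62 and 7.60 on the *Id2*-/- arrays numbered 1, 2 and 3, against 7.24, 7.63 and 7.78 on the *Id2*+/+ arrays. The arrays of the genotypes overlapped, and the difference of 0.13 had an SE of 0.25. *Ndufc2*, a subunit of the membrane arm, had the largest negative one. It measured 7.17, 5.34 and 5.33 in *Id2*-/- midgut, against 7.08, 5.61 and 5.71 in *Id2*+/+ midgut. The array numbered 1 was the bright one in both genotypes, by 1.83 and 1.42 over the mean of the other 2, and the genotype difference was -0.18 (SE 0.61).

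Complex II, which also works in the tricarboxylic acid cycle, had all 4 of its genes on the array. Its 4 genes differed by -0.03 to 0.03. *Sdha*, the flavoprotein that oxidizes succinate, measured 6.10, 5.43 and 5.33 in *Id2*-/- midgut, against 5.50, 5.70 and 5.76 in *Id2*+/+ midgut. *Sdhb*, the iron-sulfur subunit, measured 8.77, 9.38 and 9.21, against 8.44, 9.38 and 9.44. The arrays numbered 1 were the dimmest for *Sdhb* in both genotypes, and the genotypes overlapped for both genes. Their differences were -0.03 (SE 0.28) and 0.03 (SE 0.35). The membrane anchors *Sdhc* and *Sdhd* had differences of 0.02 and 0.00.

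In complex III a pair of partner subunits went opposite ways on the arrays numbered 1. *Uqcrc1* and *Uqcrc2* encode the 2 core proteins that sit together on the matrix side. *Uqcrc1* measured 6.67, 4.24 and 4.23 in *Id2*-/- midgut, against 6.33, 4.07 and 4.45 in *Id2*+/+ midgut. *Uqcrc2* measured 7.71, 8.60 and 8.56, against 7.30, 8.91 and 8.88. Both arrays numbered 1 were thus high for *Uqcrc1* and low for *Uqcrc2*, whatever the genotype. Between genotypes the differences were 0.10 (SE 0.82) and -0.07 (SE 0.50). *Uqcrfs1*, the Rieske iron-sulfur protein, and *Cyc1*, cytochrome c1, differed by 0.05 and by less than 0.01, and the small subunits *Uqcr10*, *Uqcr11* and *Uqcrq* by -0.05, 0.04 and -0.07. *Cycs*, the mobile cytochrome c, measured 8.57, 8.95 and 8.78 in *Id2*-/- midgut, against 8.09, 8.95 and 8.96 in *Id2*+/+ midgut, a difference of 0.10 (SE 0.31). Its other probe gave -0.07 (SE 0.24). That probe measured 8.02, 7.70 and 7.64 in *Id2*-/- midgut, against 7.74, 7.84 and 7.98 in *Id2*+/+ midgut. It was thus brightest on the *Id2*-/- array numbered 1 and dimmest on the *Id2*+/+ array numbered 1 within each genotype. *Cyct*, the testis cytochrome c, which is not among the 63 genes, was below background on all 6 arrays.

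Complex IV held the only tested gene of the chain that differed by more than 0.2. *Cox4i2*, the isoform of subunit IV known from lung and from low oxygen, was dim. It measured 0.29, 1.53 and 1.60 in *Id2*-/- midgut, with signal-to-noise values of 9.57, 13.1 and 11.7, against -0.79, 1.06 and 1.39 in *Id2*+/+ midgut, with 2.17, 9.10 and 5.08. The *Id2*+/+ array numbered 1 was below background, so that the gene entered the test through the *Id2*-/- arrays alone, where its mean is higher. Its difference is therefore a description. The genotypes overlapped, and within pairs the *Id2*-/- array was higher by 1.08, 0.47 and 0.21, the 1.08 against the value below background. The difference of the means was 0.59 (SE 0.63, adjusted p = 1 in limma, 0.563 with the replicate block and 0.454 with the block and centring, 95% interval from -0.90 to 2.07). Without the *Id2*+/+ array numbered 1 it was -0.09, without the *Id2*-/- array numbered 1 it was 1.01, and without both it was 0.34. Over the same pairs the median of 5 endothelial markers differed by 1.27, 0.34 and -0.15 and that of 4 erythroid markers by 0.75, 0.16 and 0.14. The median of 6 smooth muscle markers differed by 0.80, -0.16 and -0.55 and that of 8 mesenchyme markers by 0.26, -0.11 and -0.22. The part of these cell types in the *Cox4i2* values was not tested. *Cox4i1*, the isoform of most cells, measured 8.77, 7.89 and 7.82 in *Id2*-/- midgut, against 8.71, 8.07 and 8.18 in *Id2*+/+ midgut, a difference of -0.16 (SE 0.34).

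The other isoform pairs of complex IV differed in whether they were seen at all. *Cox6b1*, the common form of subunit VIb, measured 7.72, 7.25 and 7.26 in *Id2*-/- midgut, against 7.46, 7.25 and 7.48 in *Id2*+/+ midgut. *Cox6b2*, known as the testis form, was above background on all 6 arrays, at 4.93, 3.57 and 3.52, against 4.74, 3.40 and 3.48. Both arrays numbered 1 were its brightest, and its genotype difference was 0.13 (SE 0.52). *Cox8a*, the common form of subunit VIII, measured 8.95, 8.91 and 8.80, against 8.66, 8.73 and 9.12, a difference of 0.05 (SE 0.24). *Cox8b*, the form of heart and skeletal muscle in the mouse, was below background on all 6 arrays. *Cox7a1*, the form of subunit VIIa in those muscles, was above background on 2 *Id2*-/- arrays, numbered 1 and 3, and on no *Id2*+/+ array, and *Cox7b2* on the *Id2*-/- array numbered 3 alone. These 3 genes were not tested. Of 10 striated muscle markers, *Actc1*, *Myl1*, *Mylpf* and *Tnnt1* were tested, and *Acta1*, *Ckm*, *Myod1*, *Myog*, *Tnnc1* and *Tnni1* did not pass the filter. The log2 of the summed signal of the 4 tested markers lay between 6.02 and 6.95 on the *Id2*-/- arrays and between 5.76 and 7.18 on the *Id2*+/+ arrays. Of the 4 further genes tested, *Cox5a*, *Cox5b* and *Cox7b* differed by 0.01, 0.02 and -0.03, and *Cox7c* by -0.15, with -0.62 in the pair numbered 3.

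**Figure D3:**
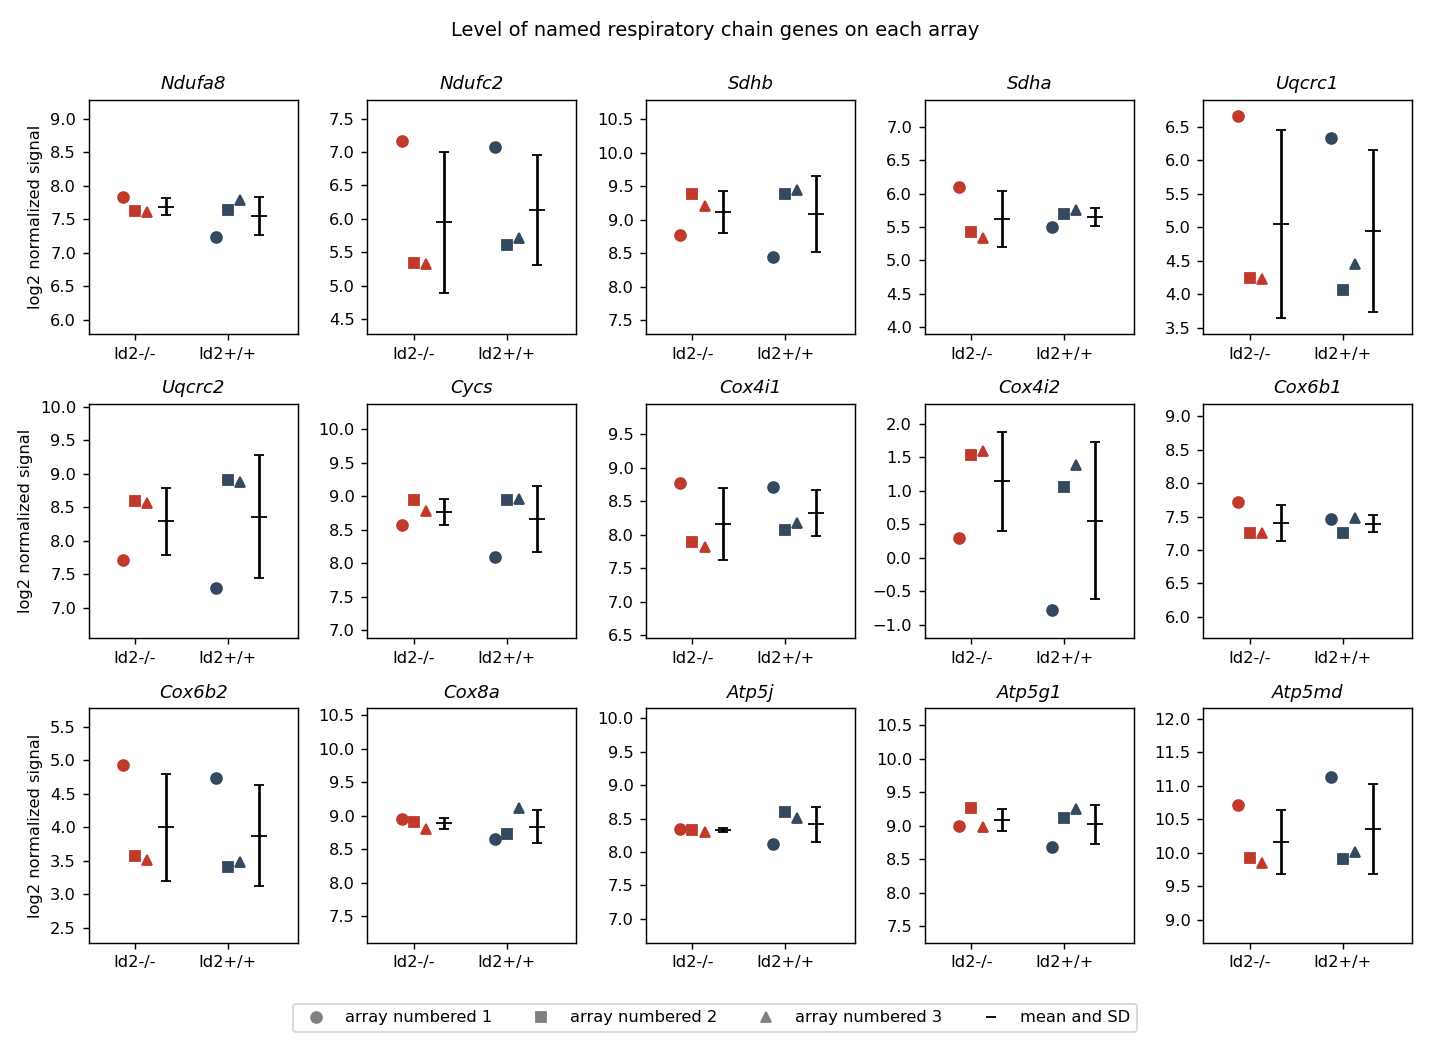
Level of 15 named respiratory chain genes in log2 normalized signal (vertical axis, each panel with its own start and the same span) on the 3 *Id2*-/- and the 3 *Id2*+/+ arrays. Markers show the array number and bars the mean and SD. *Uqcrc1*, *Ndufc2* and *Cox6b2* are high and *Uqcrc2* and *Cox4i2* low on the array numbered 1 of both genotypes, and the genotypes overlap in each panel.

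The ATP synthase had 3 genes above 0 and 9 below, with a median difference of -0.05, and 0 of 12 passed the test. *Atp5md*, a small membrane subunit, measured 10.7, 9.93 and 9.85 in *Id2*-/- midgut, against 11.1, 9.92 and 10.02 in *Id2*+/+ midgut. Its difference of -0.19 (SE 0.41) was largest in the pair numbered 1, at -0.43, beside 0.01 and -0.16 in the pairs numbered 2 and 3. It became 0.20 once the *Id2*+/+ array numbered 1 alone was left out, and -0.07 without both arrays numbered 1. *Atp5g1*, *Atp5g2* and *Atp5g3* each encode the c subunit of the rotating ring, and they differed by 0.06, -0.05 and less than 0.01. *Atp5g1* measured 8.99, 9.27 and 8.98 in *Id2*-/- midgut, against 8.69, 9.11 and 9.25 in *Id2*+/+ midgut (SE 0.26). Of the catalytic head and central stalk, *Atp5b*, the beta subunit, lay at 0.04, and the gamma, delta and epsilon subunits *Atp5c1*, *Atp5d* and *Atp5e* at -0.04, -0.12 and -0.14.

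The 2 probes of *Atp5j*, coupling factor 6 of the stalk, gave opposite signs. The brighter measured 8.35, 8.33 and 8.30 in *Id2*-/- midgut, against 8.12, 8.60 and 8.51 in *Id2*+/+ midgut. The dimmer measured 4.21, 2.15 and 1.63, against 4.04, 2.02 and 1.83. Their differences were -0.08 (SE 0.24) and 0.03 (SE 0.81), each within 1 SE of 0. On the arrays numbered 1 they parted: the dimmer probe stood 2.32 and 2.11 above the mean of the other 2 arrays of its genotype, and the brighter 0.03 and -0.44.

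The shift of the arrays numbered 1 was then followed across the whole chain. This comparison was chosen after the values were seen, and the labels do not say what the samples of a number have in common. Taken as number 1 minus the mean of numbers 2 and 3 and averaged over the genotypes, it ran from -1.64 for *Cox4i2* to 2.25 for *Uqcrc1*. In the *Id2*-/- and the *Id2*+/+ arrays it correlated at r = 0.96 over the 60 genes and at 0.84 over all tested probes, a description across genes that share the same 6 arrays. Both arrays numbered 1 lay above the other 4 for 27 of 60 genes (45.0%), beside 27.6% of all tested probes, and below them for 12 (20.0%), beside 31.1%. After quantile normalization 36 genes lay above and 15 below, beside 29.1% and 39.0% of all tested probes. After centring on the tested probes 29 of the 60 lay above (48.3%) and 23 below (38.3%), beside 27.2% and 41.5%, so that the share below was then close to that of all tested probes. In the authors' scaling the 1537 bright probes named above had 20.6% above and 45.5% below. Of the comparison lists described below, biogenesis had 6 of 13 genes above (46.2%), glycolysis 4 of 9 (44.4%), the tricarboxylic acid cycle 6 of 14 (42.9%) and carriers 6 of 16 (37.5%). The other lists, which are larger, had 27.4% to 33.3%. A high share above was thus also seen in small lists outside the chain, but not in the larger ones.

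The shift went both ways inside each complex but the 1-gene cytochrome c. In complex I, *Ndufb11* stood 1.80 higher in *Id2*-/- and 1.50 higher in *Id2*+/+ midgut on the array numbered 1, while *Ndufa10* had shifts of -1.27 and -1.77. In complex III, *Uqcr11* stood 1.55 and 1.43 higher, and *Uqcrfs1* had shifts of -0.42 and -1.32. In complex IV, *Cox5b*, whose product binds zinc, stood 2.43 and 1.69 higher, and *Cox5a* had shifts of -0.35 and -0.87. In complex V, *Atp5g2* stood 1.63 and 1.37 higher, and *Atp5pb*, the b subunit of the peripheral stalk, had shifts of -0.82 and -1.37. These genes were chosen for their shift. Among the 7 genes with the NRF1 letters it ran from -0.75 for *Sdhb* to 2.25 for *Uqcrc1*, and among the 26 genes with a promoter and none of the 3 motifs from -1.52 to 2.06.

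**Figure D4:**
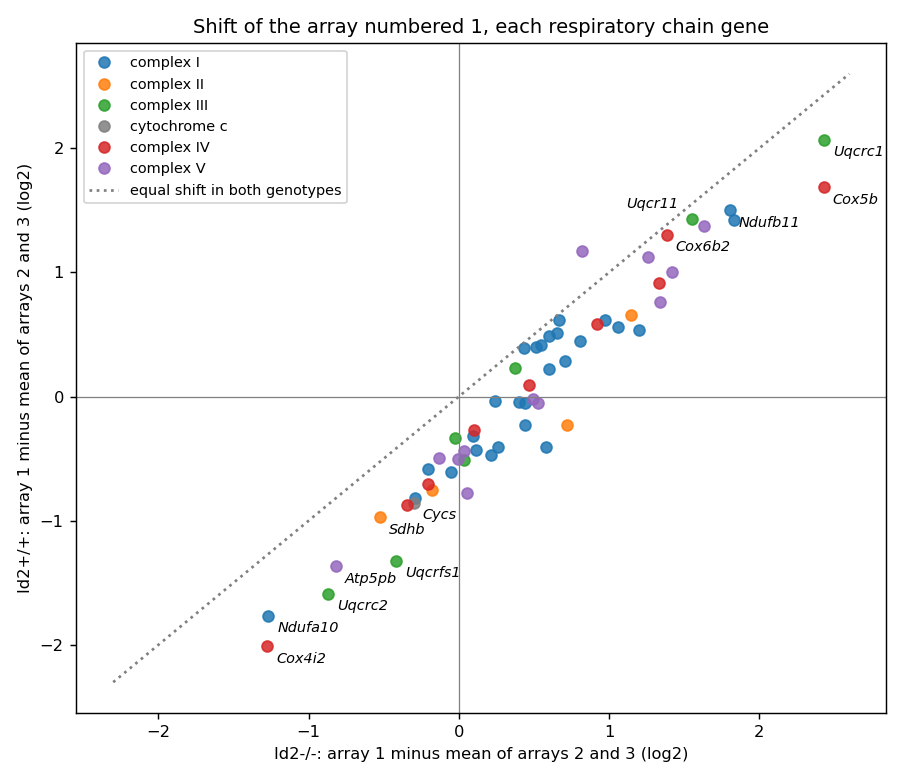
Shift of the array numbered 1 against the mean of the arrays numbered 2 and 3, in log2 normalized signal, in *Id2*-/- (horizontal axis) and in *Id2*+/+ midgut (vertical axis). Each point is 1 of the 60 genes, colored by complex, and the dotted line marks equal shifts. Genes of 1 complex lie at both ends, such as *Uqcrc1* (2.43 and 2.07) and *Uqcrc2* (-0.87 and -1.59).

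Other genes of the mitochondrion also had medians near 0. None of the tested genes of 8 comparison lists passed the test, without or with the replicate block. The median difference was 0.02 over 30 assembly factors, which build the complexes, -0.01 over 62 proteins of the mitochondrial ribosome, -0.01 over 14 enzymes of the tricarboxylic acid cycle and pyruvate dehydrogenase, 0.02 over 16 carriers and import proteins, and -0.05 over 13 genes of mitochondrial DNA and biogenesis. Outside the mitochondrion it was 0.06 over 27 proteasome subunits, -0.06 over 58 cytosolic ribosomal proteins and 0.05 over 9 glycolytic enzymes. In the pairs numbered 1, 2 and 3 the mitochondrial ribosome lay at 0.36, -0.04 and -0.28, beside 0.30, 0.00 and -0.27 for the chain.

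The factors that are known to drive respiratory chain genes were on the array too. *Nrf1* measured 3.51, 0.78 and 1.57 in *Id2*-/- midgut, against 2.87, 1.42 and 1.90 in *Id2*+/+ midgut. *Gabpa* measured 2.76, 0.85 and 1.10, against 2.31, 1.55 and 1.70. Both were highest on the array numbered 1 of either genotype, and their genotype differences were -0.11 and -0.28. On the other arrays both were dim, below the medians of all tested probes on those arrays (3.50 to 3.67). *Ppargc1a*, of the same list of mitochondrial DNA and biogenesis, was lowest on the arrays numbered 1. It measured 2.26, 3.29 and 3.24, against 2.21, 3.47 and 3.27, a difference of -0.05. *Yy1* measured 6.43, 5.84 and 5.63, against 6.06, 5.90 and 5.95, with a difference of less than 0.01. *Tfam*, which packs and transcribes mitochondrial DNA, differed by 0.07 and *Esrra*, a nuclear receptor that activates genes of energy metabolism, by -0.09. *Nrf1*, *Gabpa*, *Yy1*, *Tfam* and *Esrra* were named for their known role and not for their values, and their adjusted p in limma was 1, without and with the replicate block.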

How the data were processed

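RNA of 6 samples was amplified, labeled and read on Applied Biosystems mouse genome survey arrays. Per the file headers, the deposited files give for each probe a signal intensity, a signal-to-noise score, a quality flag and the authors' median-normalized signal, whose constant equals the median of the unflagged spots (708 to 1010.4). Spots with flags from 5000 upward were left out as bad. Depth is not defined for arrays, and 6 arrays limit the precision.

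The test of log2 of the deposited normalized signal used limma 3.58.1 under R 4.3.3 (lmFit, eBayes, Benjamini-Hochberg over 12741 probes, threshold 0.05), without a block. Arrays of the same number deviated together (r of the deviations 0.838, 0.644 and 0.579). The array with number 3 in *Id2*-/- and that with number 2 in *Id2*+/+ also correlated, at 0.638. For number 2 in *Id2*-/- and number 3 in *Id2*+/+ it was 0.549. The 3 deviations of a genotype sum to 0, so the shift of the arrays numbered 1 alone raises these values. They thus set apart only the arrays numbered 1, and the pairs numbered 2 and 3 rest on the labels. The replicate block is given where it changes a call, with 278 probes called. Named genes are the extremes of each complex, genes below background on some array, isoforms, and genes whose probes disagree in sign. Members, gene lists and motifs were chosen with earlier results of these data known. Alternatives were other normalizations, filters, offsets, priors and array sets and the methods' t-test. Figures were drawn with matplotlib 3.10.9.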

Additional observations from a re-analysis of the deposited data

How the results depend on the processing

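No probe of the respiratory chain passed the threshold under any alternative run. Over all tested probes the replicate block called 278, and every other alternative called 0. The replicate block changed no other call. The median of the chain ranged from -0.166 to 0.105 with each array left out in turn. The cause of the sign changes below was not tested; none of these values passed the test.

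Leaving out both arrays numbered 1, an alternative chosen after seeing the data, turned 28 of the 32 genes that were positive with 6 arrays, furthest *Uqcrfs1*, *Atp5b* and *Cox5b*, to -0.248, -0.236 and -0.229. Of the genes with values per array it gave -0.095 for *Ndufa8*, -0.115 for *Sdhb*, -0.025 for *Uqcrc1*, -0.087 for *Cycs*, -0.111 for *Cox6b1*, -0.070 for *Cox8a*, -0.056 for *Atp5g1* and -0.038 for the dimmer *Atp5j* probe, all positive with 6 arrays. Centring on the tested probes, without or with the replicate block, turned *Sdhb* to -0.009, *Cox6b1* to -0.029 and the dimmer *Atp5j* probe to -0.011, and quantile normalization, without or with the block, turned the last to -0.043. Centring also moved the genes with both arrays numbered 1 below the other 4 to 23 (38.3%, beside 41.5% of all tested probes).

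With each array left out in turn, the difference ranged from -0.023 to 0.250 for *Ndufa8*, from -0.794 to 0.290 for *Ndufc2*, from -0.290 to 0.211 for *Sdhb*, from -0.275 to 0.109 for *Sdha*, from -0.714 to 0.786 for *Uqcrc1* and from -0.603 to 0.217 for *Uqcrc2*. It ranged from -0.187 to 0.244 and from -0.187 to 0.006 for the probes of *Cycs*. In complex IV the range was -0.466 to 0.035 for *Cox4i1*, -0.085 to 1.011 for *Cox4i2*, -0.142 to 0.093 for *Cox6b1*, -0.334 to 0.561 for *Cox6b2* and -0.037 to 0.194 for *Cox8a*. In complex V it was -0.101 to 0.183 for *Atp5g1*, -0.465 to 0.198 for *Atp5md*, and -0.229 to 0.011 and -0.742 to 0.735 for the probes of *Atp5j*. *Cox4i2* has no value where a signal-to-noise value of 3 was asked on all 6 arrays. Signal over background limits only *Cox4i2* and the 3 untested genes of complex IV.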
